A study of Mus musculus with 8 samples.

Results

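The cells described here were the proximal tubule cells of mouse kidney suspensions that had been sorted for leukocytes, and they numbered 1583 of the 90855 cell barcodes past the quality limits (1.74%), or 1.32% of all 120281 barcodes. They were chosen by the summed counts of 5 genes of this segment, *Lrp2*, *Cubn*, *Slc34a1*, *Slc5a12* and *Slc13a3*, which had to reach 4 with at least 2 of the genes detected. Each barcode also needed more than 300 genes, fewer than 20000 counts and less than 25% mitochondrial counts. Barcodes with more than 2 counts of the loop of Henle genes *Slc12a1* and *Umod*, more than 1 count of the macrophage genes *C1qa*, *C1qb* and *C1qc*, or more than 1 count of *Flt1*, *Pax5* and *Themis* were left out. Of the 2036 barcodes that met the marker rule within the limits, 83, 264 and 211 failed these exclusions, and some failed more than 1. Among the members 152 stood exactly at the lowest accepted marker sum of 4, and 194 further barcodes stood just outside it at 3. Likewise 193 members had 20% to 25% mitochondrial counts, and 217 barcodes that met all other terms had 25% to 30%.

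The proximal tubule reclaims most of the filtered glucose, amino acids, phosphate and protein, and it burns fatty acids to pay for this transport. Its first stretches, S1 and S2, take up the bulk of the solutes, and the straight S3 stretch reaches into the outer medulla, where oxygen is scarce. After ischemia these cells are known to lose transport and metabolic genes and to switch on injury genes such as *Havcr1*, which encodes the membrane protein KIM-1, and *Spp1*, which encodes osteopontin.

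The study compared ischemia-reperfusion injury (IRI) of the left kidney in mice given entospletinib, an inhibitor of the kinase SYK, or its vehicle, with kidneys left untouched. All mice were C57BL/6 males, and the agent was injected before the clamp and again on later days, so that the day 1 animals had received only the first dose. The 7 conditions were control, vehicle at day 1, 7 and 14 after IRI, and entospletinib at day 1, 7 and 14, which are named below as vehicle day 1 and so on. The cells of 3 mice were pooled into 1 suspension per condition and sorted for live leukocytes by dye exclusion and light scatter, so the tubule cells were those that the sort let through. The spread between mice was not measured, and the 8 sublibraries, each of which held a portion of the same cells of all conditions, give technical spread only. The members held 6411013 counts in all, with a median of 2933 per cell and a range from 450 to 19817. No doublet caller was run, 373 members shared a well combination with a barcode of another sublibrary, and vehicle day 14 had the fewest members, 78.

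The cells carried many genes of this segment that the rule did not use. In CPM (counts per 1e6 counts, here of non-mitochondrial ones), 16 further proximal tubule genes were between 13.7-fold (*Gatm*, the first enzyme of creatine synthesis) and 77.4-fold (*Slc5a2*, the glucose transporter SGLT2) higher in the members than in the other barcodes past the limits. *Lrp2*, the endocytic receptor megalin, was detected in 97.4% of members and *Slc34a1*, a phosphate transporter, in 91.3%, both as a result of the rule. All 5 rule genes were found together in 154 members (9.73%). *Slc13a3*, a dicarboxylate transporter of the basolateral side, was the least often seen of the rule genes, in 28.7% of members.

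The members took their largest share of barcodes in the control pool and smaller shares after injury. They were 743 of 11205 barcodes in control (6.63%, 95% exact binomial interval 6.18 to 7.11), 146 of 22489 at vehicle day 1 (0.649%, 0.548 to 0.763), 90 of 6110 at vehicle day 7 (1.47%, 1.19 to 1.81) and 78 of 17261 at vehicle day 14 (0.452%, 0.357 to 0.564). With entospletinib they were 92 of 14041 at day 1 (0.655%, 0.529 to 0.803), 246 of 7605 at day 7 (3.23%, 2.85 to 3.66) and 188 of 12144 at day 14 (1.55%, 1.34 to 1.78). The control share lay above every injured pool in each sublibrary. On the log2 scale the vehicle shares were below control by a difference of -3.35 ± 0.36 (SD, n = 8 sublibraries) at day 1, -2.17 ± 0.65 at day 7 and -3.88 ± 0.40 at day 14. Entospletinib over vehicle was 0.01 ± 0.38 at day 1, with 4 of 8 sublibraries higher. This day 1 value was 0.42 with ribosomal protein genes limited to less than 1.5% of counts. With at most 1 leukocyte gene count per member it was 0.79, and vehicle day 1 against control was -4.22. Entospletinib over vehicle was 1.13 ± 0.46 at day 7 and 1.78 ± 0.43 at day 14, higher in 8 of 8 sublibraries on both days. These shares follow a leukocyte sort and the number of leukocytes in each pool, and a change in tubule cells cannot be told apart from either. With 1 pool per condition they carry no test between conditions, and all intervals cover counting error only.

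**Figure D1:**
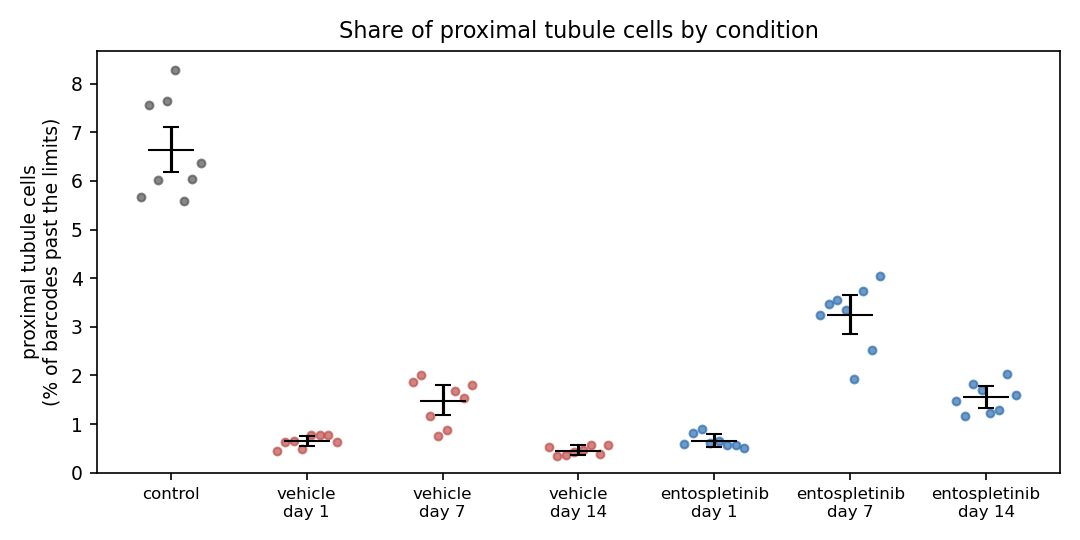
Share of proximal tubule cells among barcodes past the limits (y axis, percent) in the 7 conditions; dots are the 8 sublibraries, horizontal lines the pooled share and bars its 95% exact binomial interval. Control stands at 6.63% and the injured pools between 0.452% and 3.23%, with entospletinib above vehicle at days 7 and 14 but not at day 1.

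Cells that met the same marker rule at or above the mitochondrial limit numbered 1439, with a median of 41.5% mitochondrial counts. Below the limit, the median mitochondrial share of the members ran from 5.09% at entospletinib day 14 to 9.50% at entospletinib day 7. The median count per cell was 1941 at entospletinib day 14 and between 2860.5 and 3337.5 in the other conditions. Ribosomal protein genes passed 1.5% of counts in 90 members, and at day 1 the members under that level were 78.1% with vehicle and 80.4% with entospletinib, against 92.7% to 98.7% elsewhere.

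Gene levels below are given as CPM of all member counts, summed over the members of a condition. Each comparison covered the 3298 genes whose average over conditions reached 50 CPM, and log2 ratios are relative to the median gene, which itself lay at 0.07, -0.06 and 0.29 for vehicle over control at days 1, 7 and 14, and at -0.11, 0.25 and -0.14 for entospletinib over vehicle. A gene was called higher or lower when its ratio was at least 2-fold and had the same sign in at least 7 of the 8 sublibraries. Genes of a list under the 50 CPM average were left out of its counts, and a gene low in control could pass through the pools in which it was high, as *Havcr1* and *Cxcl2* did. Counts and medians over the tested genes of the injury, inflammatory, immediate early and matrix lists are therefore descriptions of those that passed and no support for a change of the list. A call describes these pools and is no test between conditions. For genes with few counts, the sign in a sublibrary without counts is set by the 0.5 count added and by the depths of both pools. All 3 vehicle comparisons share the control pool, and each entospletinib comparison shares its vehicle pool with one of them.

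Several injury genes were called higher at vehicle day 1. Of all genes, 5.15% were called higher and 4.67% lower, and of the tubular injury list of 34 genes 12 were tested, of which 7 were called higher and none lower (median log2 1.95). Only 4 of the 12 reached 50 CPM in control itself, and 1 of those 4, *Spp1*, was among the genes called. *Havcr1* (chr11:46735080-46779578, plus strand, GRCm38) stood at 2.27 CPM in control, 237 at vehicle day 1, 13.03 at vehicle day 7, 123 at vehicle day 14, 63.6 at entospletinib day 1, 5.08 at entospletinib day 7 and 35.9 at entospletinib day 14. The pools of vehicle days 1 and 14 were the highest, and the entospletinib pool of day 7 was nearest to control. The log2 ratio at vehicle day 1 was 6.54 ± 1.34 (SD, n = 8). Its 185 counts there came from 45 cells, while the 5 counts of vehicle day 7 came from 1 cell and 71.4% of those at vehicle day 14 from 1 cell. After thinning each cell to 1000 counts, *Havcr1* was seen in 24 of 133 members at vehicle day 1 (18.05%), 7 of 84 at entospletinib day 1 (8.33%, exact interval 3.42 to 16.4) and 2 of 721 in control, and in 0.733% of other control barcodes.

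*Spp1* (chr5:104435118-104441050, plus strand) was the most abundant of the injury genes named here, at 223 CPM in control, 3378, 341 and 1954 at vehicle days 1, 7 and 14, and 2075, 397 and 1279 with entospletinib. Both day 1 pools lay above all others, and both day 7 pools lay nearest to control. The log2 ratio was 3.85 ± 0.46 at vehicle day 1 and 2.84 ± 0.98 at vehicle day 14, where 1 cell gave 49.9% of the counts and the ratio without it was 2.04. *Spp1* was also raised elsewhere in the suspension, to 1218 CPM at vehicle day 1 from 174 in control over all other barcodes, and in loop of Henle cells (1007 barcodes) it was higher than in the members in every condition. *Plin2*, which coats lipid droplets, went from 39.0 to 148 CPM at vehicle day 1 and was 49.1 at vehicle day 14, and *Clu*, a secreted chaperone, from 24.3 to 94.9 at day 1, a call that was lost in 4 of 20 alternatives.

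Several inflammatory genes were higher too. Of 13 tested genes among the 29 of the leukocyte-recruiting and inflammatory list, 8 were called higher at vehicle day 1 and none lower (median 1.77), and of the 8 that reached 50 CPM in control 3 were called. *Il34*, a ligand of the macrophage receptor CSF1R, stood at 30.2 CPM in control, 226, 31.3 and 263 at vehicle days 1, 7 and 14, and 198, 69.1 and 80.2 with entospletinib. Days 1 and 14 with vehicle were the 2 highest pools, and vehicle day 7 was level with control. Its ratio to control was 2.83 ± 0.99 at day 1. *Nfkbiz*, an NF-κB cofactor, went from 69.5 to 376 CPM, *Stat3*, a transcription factor of cytokine signalling, from 62.7 to 223, and *Cxcl2*, a neutrophil attractant, from 14.9 to 181. The immediate early and heat shock list had 7 of 15 genes higher at vehicle day 1 (median 1.19), among them *Fos*, *Jun*, *Atf3* and *Klf6*, the last at 81.5 CPM in control and 322. Of the 8 genes of this list that reached 50 CPM in control, 2 were called higher. The matrix and growth factor list had 4 of 14 higher and 1 lower, the last being the laminin chain *Lama3*. Of its 10 genes that reached 50 CPM in control, 2 were called higher and 1 lower. The basement membrane collagen genes *Col4a1* (78.6 to 323 CPM) and *Col18a1* (35.4 to 208 CPM) were among the higher ones. In members with little leukocyte RNA *Col4a1* went from 80.2 to 126 CPM (18 counts), under 2-fold, and *Col18a1* from 40.4 to 119 CPM.

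Metabolic genes and S1 and S2 genes were among those lower at vehicle day 1, while the apical and basolateral transporter lists had 1 of 19 and 2 of 15 genes lower. In the list of glucose, amino acid and ammonia metabolism 7 of 19 were called lower and none higher (median -0.68). *Miox*, a kidney enzyme that breaks down inositol, stood at 480.5 CPM in control, 122, 422 and 154 at vehicle days 1, 7 and 14, and 203, 432 and 327 with entospletinib. Both day 7 pools were close to control and the other injured pools below it. Its ratio was -2.04 ± 0.54 at vehicle day 1. *Ass1*, which makes the arginine precursor in this segment, went from 1389 to 417 CPM (-1.80 ± 0.51), and *G6pc*, the last step of glucose release, from 235 to 60.3 (-2.02 ± 0.86). *Sord*, *Gatm* and *Gldc* were among the others of this list called lower. In members with little leukocyte RNA *Gatm* was at 1401 CPM in control and 777 at vehicle day 1, under 2-fold before centring. *Sord* (818 to 343 CPM) and *Gldc* (198 to 63.0 CPM, 9 counts) were past 2-fold there.

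Of the 19 fatty acid oxidation genes tested, 4 were lower at vehicle day 1 (median -0.48). They were *Ppara*, the nuclear receptor that drives this pathway (256 to 84.7 CPM), *Acsm2* (2744 to 1213 CPM), *Acsm3* (198 to 24.4 CPM, -3.05 in all members and -1.50 and not called in those with little leukocyte RNA) and *Slc27a2* (789 to 410.4 CPM), of which *Slc27a2* was at under 2-fold in 6 of the 8 recounts without 1 sublibrary. In members with little leukocyte RNA *Slc27a2* was at 825 CPM in control and 623 at vehicle day 1, under 2-fold. *Vdr*, the vitamin D receptor, went from 282 to 100.05 CPM. Among S1 and S2 genes 5 of 9 were called lower (median -1.02), for example the neutral amino acid transporter *Slc6a19* and the organic anion transporter *Slc22a8*. In members with little leukocyte RNA *Slc22a8* went from 105 to 56.0 CPM (8 counts), under 2-fold before centring, and *Slc6a19* from 198 to 84.0 CPM. Among 6 S3 genes 2 were called lower, and *Slc7a13*, the S3 aspartate and glutamate transporter, stood at 148 CPM in control, at 14.1, 49.5 and 98.2 in the vehicle pools and at 9.42, 80.3 and 65.4 in the drug pools. Both day 1 pools were the lowest. The 5 rule genes, whose levels the rule itself touches, had log2 ratios between -1.10 (*Slc34a1*) and -0.50 (*Cubn*).

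Not all transport genes were lower. *Slc13a1*, the apical sulfate transporter, stood at 793 CPM in control, 2513, 860.1 and 1835 at vehicle days 1, 7 and 14, and 3149, 774 and 1309 with entospletinib, so that both day 1 pools were above the rest (1.60 ± 0.76 for vehicle day 1). It was likewise higher at day 1 in the cells above the mitochondrial limit (2.27, 8 of 8 sublibraries). In the endocytosis list the 4 lysosomal protease genes tested, *Ctsb*, *Ctsd*, *Ctsl* and *Lgmn*, were all called higher at vehicle day 1, *Ctsb* from 154 to 593 CPM, and none of the other 6 genes of that list was called.

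**Figure D2:**
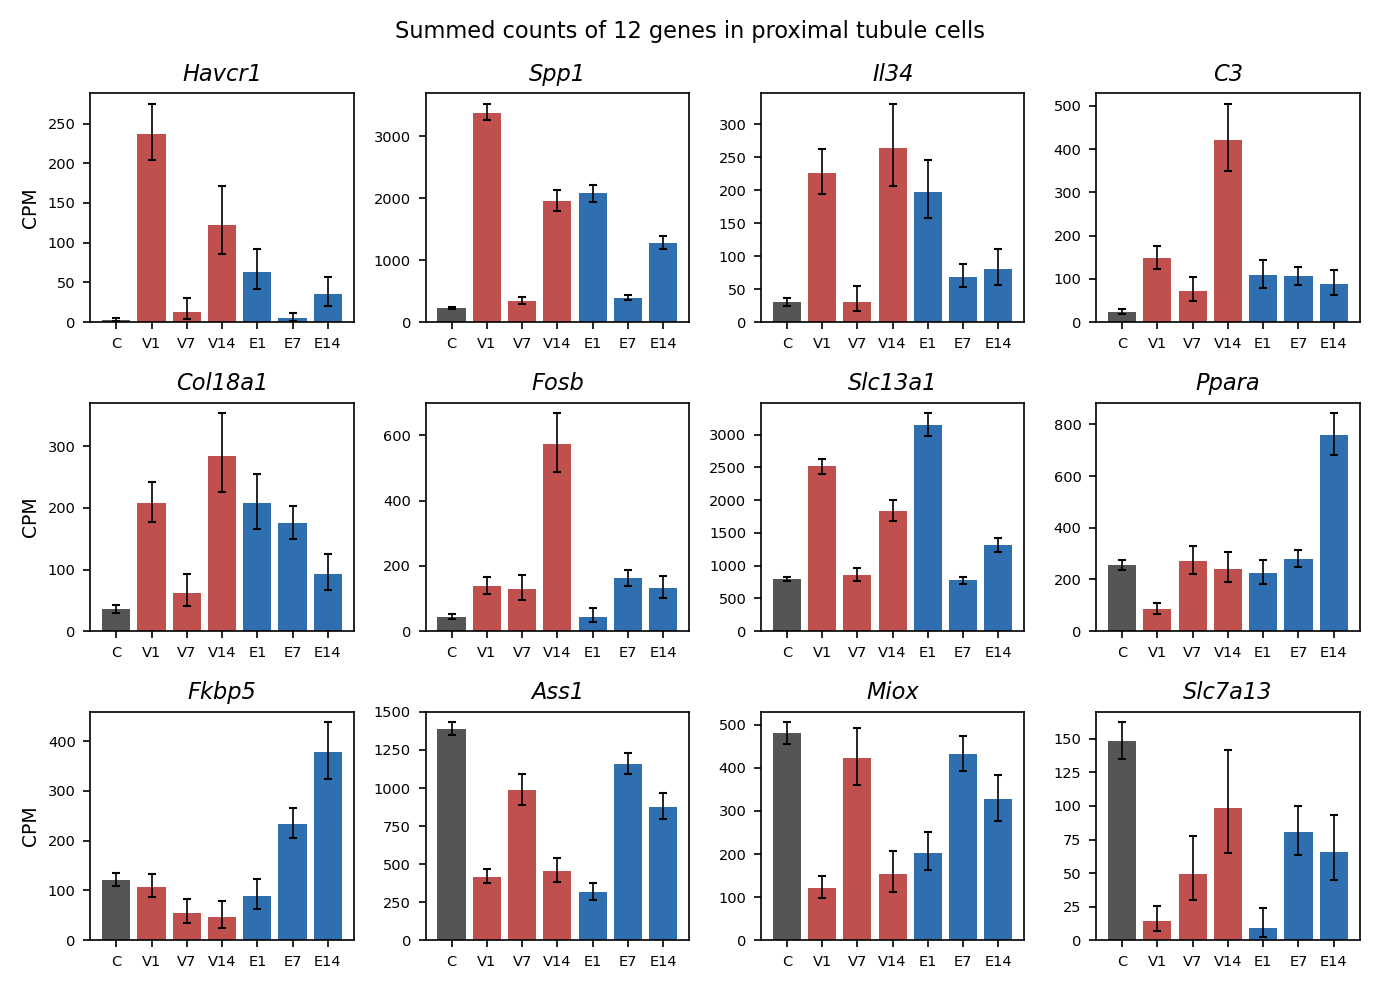
Levels of 12 genes in the proximal tubule cells (y axes, CPM from 0) in control (C), vehicle days 1, 7 and 14 (V1, V7, V14) and entospletinib days 1, 7 and 14 (E1, E7, E14); bars are pooled values and error bars 95% exact Poisson intervals, which cover counting error only. *Havcr1* peaks at 237 in V1, *Ppara* at 760.0 and *Fkbp5* at 378 in E14, while *Ass1* and *Miox* are lowest in the day 1 pools and V14.

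Among the 3 vehicle pools, day 7 had the fewest calls against control. There 1.3% of all genes were called higher and 1.12% lower, and no gene of the glucose and amino acid list or the S1 and S2 list was called. In the fatty acid oxidation list *Acsm3* and *Cyp4b1* were lower (2 of 19, median -0.41). In the glucocorticoid list *Fkbp5*, *Zbtb16* and *Errfi1* were lower and *Dusp1* higher (of 7 tested, median -0.83). In members with little leukocyte RNA *Fkbp5* went from 107 to 72.1 CPM, *Errfi1* from 608 to 332 and *Dusp1* from 32.5 to 38.5. Each was under 2-fold before centring. *Zbtb16* went from 45.1 to 9.62 CPM there, with 2 counts left. In those members 107 genes were called at day 7, of which 20 were among the 80 called in all members. The injury list had 3 of 12 higher (median 0.20), *Havcr1*, *Sox4* and *Cd44*, with the *Havcr1* call resting on 1 cell, and its sign in sublibraries without a count set by the 0.5 count added to a shallower pool, and the immediate early list 3 of 15, *Fosb*, *Fosl2* and *Egr1*. Over all other barcodes *Cd44* went from 255 to 1061 CPM. In members with little leukocyte RNA it went from 19.2 to 33.7 CPM (7 counts), under 2-fold before centring, and *Sox4* from 10.6 to 43.3 CPM (9 counts). Lower genes in all members included *Kap*, an androgen-dependent gene of the tubule (1113 to 404 CPM), the peroxisomal gene *Agps* (252 to 86.0 CPM), and the cytochromes *Cyp2e1*, *Cyp4b1* and *Cyp2j13* (329 to 107 CPM). *Notch2*, a signalling receptor, went from 78.2 to 177 CPM, the level it also had at vehicle day 1.

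The vehicle day 14 pool held 78 cells and was set against the same control pool as day 1, so agreement between these days was not tested. Of all genes 3.97% were called higher and 9.55% lower. The injury list had 7 of 12 higher (median 2.504), the inflammatory list 9 of 13 (1.70), the immediate early list 9 of 15 with 1 lower (1.93) and the matrix list 7 of 14 (1.38). Among the genes of these lists that reached 50 CPM in control, the calls were 1 of 4, 4 of 8, 4 of 8 with 1 lower, and 3 of 10. *Cp*, which encodes the copper-carrying ceruloplasmin, stood at 18.8 CPM in control, 162, 15.6 and 484 at vehicle days 1, 7 and 14, and 65.9, 237 and 99.2 with entospletinib. Vehicle day 14 was the highest and entospletinib day 7 the second, where 1 cell gave 51.5% of the counts. *C3*, of the complement cascade, went from 24.0 to 421 CPM, *Dcdc2a* from 25.0 to 242 and *Hbegf*, an EGF receptor ligand, from 25.6 to 309. The AP-1 genes *Fosb* (44.8 to 572 CPM, 3.38 ± 1.24) and *Jun* (131 to 923 CPM, 2.53 ± 0.67) were higher in 8 of 8 sublibraries.

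Of the tested metabolic genes, 10 of 19 glucose and amino acid genes (median -1.03) were called lower at vehicle day 14. So were 7 of 19 fatty acid oxidation genes (median -0.94), and none was called higher in either list. *Pck1*, the first committed step of glucose making, went from 829.8 CPM in control to 235 (-2.10 ± 1.64) and *Acadm*, a fatty acid dehydrogenase, from 378 to 105. *Mdh1* and *Slc25a5*, genes of mitochondrial exchange, went from 321 to 59.6 and from 210.0 to 42.1 CPM. *Hnf4a*, a regulator of proximal tubule identity, was 539 CPM in control, 292, 370.1 and 270.2 at vehicle days 1, 7 and 14, and 261, 543 and 319 with entospletinib, and of the vehicle pools against control day 14 was called (-1.28 ± 0.49) and the others were not. In members with little leukocyte RNA *Hnf4a* was at 610 CPM in control and 414 at vehicle day 14, under 2-fold before centring. *Ppara* was at 242 CPM in all members of vehicle day 14 and not called. *Gpx3*, the secreted glutathione peroxidase, was 5728 CPM in control, 8436 at vehicle day 1 and 1754 at vehicle day 14.

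The promoters of the tested genes of 5 lists, called or not, were searched for 4 short motifs on both strands, in windows from 250 bases before to 50 after the start taken from RefSeq (GRCm38.p6). The motif GTTAAT, which is part of the HNF1 site, was present for 5 of the 16 matched genes of the 19 glucose and amino acid genes tested and for 5 of 11 matched injury genes of 12, against 8.24% of all 27025 genes with a promoter entry. A gene with several windows counted when any of them held the motif. TATAAA was present in 5 of the 16 and 3 of the 11, against 15.7% of all. CAAAGTC, part of the HNF4 site, was present in 2 and 0, against 5.00%. TGANTCA, a looser form of the AP-1 site in which N was any base, was present in 1 and 3, against 8.97%. Of 17 matched fatty acid oxidation genes 2 held GTTAAT, 1 TATAAA, 1 TGANTCA and 0 CAAAGTC. Of 9 matched inflammatory genes 6 held TATAAA, 2 CAAAGTC, 1 GTTAAT and 1 TGANTCA. Of the 11 matched genes of the 15 in the immediate early list 2 held TATAAA, 1 CAAAGTC and none TGANTCA or GTTAAT. A match is a description of the letters and not a binding site. The windows of *Miox* (chr15:89334223-89334522, plus strand), *Pck1* (chr2:173152823-173153122, plus strand) and *Havcr1* (chr11:46750261-46750560, plus strand, 1 of 3 entries for the gene) are shown because they belong to genes with large changes in opposite directions that share the motif, and they were picked after the matches were seen; capitals mark GTTAAT or its reverse complement ATTAAC, and the strands are written 5′ to 3′.
Miox: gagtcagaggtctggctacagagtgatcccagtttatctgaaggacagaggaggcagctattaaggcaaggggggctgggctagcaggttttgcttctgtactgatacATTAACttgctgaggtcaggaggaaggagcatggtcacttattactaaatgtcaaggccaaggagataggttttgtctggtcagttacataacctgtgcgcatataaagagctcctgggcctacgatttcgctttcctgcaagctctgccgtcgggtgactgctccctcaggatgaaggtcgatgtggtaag
Pck1: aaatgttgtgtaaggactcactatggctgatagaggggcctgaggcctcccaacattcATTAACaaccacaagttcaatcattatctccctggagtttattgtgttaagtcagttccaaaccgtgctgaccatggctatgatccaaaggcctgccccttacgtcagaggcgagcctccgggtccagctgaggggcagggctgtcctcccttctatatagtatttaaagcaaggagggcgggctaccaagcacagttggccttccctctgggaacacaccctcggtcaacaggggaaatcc
Havcr1: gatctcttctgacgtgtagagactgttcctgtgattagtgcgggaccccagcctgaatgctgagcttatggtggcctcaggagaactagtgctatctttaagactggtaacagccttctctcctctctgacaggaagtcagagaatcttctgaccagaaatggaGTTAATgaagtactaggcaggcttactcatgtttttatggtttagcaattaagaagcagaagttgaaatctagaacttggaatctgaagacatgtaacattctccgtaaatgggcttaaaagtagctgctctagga

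Leukocyte RNA moved with part of these differences. The 10 general leukocyte genes, among them *Ptprc*, summed to 845 CPM in control members, 1778 at vehicle day 1, and between 571 and 935 in the other pools, and all 10 were detected in every pool. The 10 monocyte and neutrophil genes summed to 124 CPM in control, to 1419, 383 and 347 in the vehicle pools and to 582, 162 and 196 in the drug pools. In the other barcodes the neutrophil gene *S100a9* stood at 26.6 CPM in control and 1248 at vehicle day 1. T cell receptor gene *Trac* was at 1 count in all members. The part of leukocyte RNA in each result was not tested, but values with less of it can be given: members with at most 1 count of the 10 leukocyte genes numbered 482 in the control pool, 52, 62 and 42 in the vehicle pools and 56, 156 and 125 in the drug pools.

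These leukocyte-poor members were not free of such RNA, since the neutrophil gene *S100a9* was at 112 CPM (16 counts) in those of vehicle day 1 against 15.9 in those of control, and *Ptprc* at 28.0 against 31.8. They also held fewer counts per cell on average in all 7 pools. In them *Havcr1* remained high at vehicle day 1, at 490.2 CPM from 70 counts (7.61 against 6.54 in all members), and so did *Spp1* (4.00 against 3.85), *Il34* (2.92 against 2.83), *Klf6* (2.96 against 1.92) and *Plin2* (2.67 against 1.85). *Slc13a1* was at 1.27, *Ass1* at -1.99 and *Miox* at -1.92. Other genes did not keep their level. *Thbs1* went from 3.89 to 0.80 (8 counts left at vehicle day 1), *Il1b* from 3.39 to 1.53 and *Clu* from 1.90 to 0.38 (4 counts). *Cd44*, a hyaluronan receptor, was left with 2 counts, *Tnfaip3* with 1 and *Dusp1* with 0, so that the added 0.5 count bears on their ratios and no size is given for them here. At vehicle day 14 *Fosb* (4.35) and *Hbegf* (3.12) kept their ratios, while *Il1b* went from 1.70 to 0.39. *Havcr1* was left with 3 counts there (27.6 CPM), *Cxcl2* with 2, *Fn1* and *Sox4* with 1 each and *Tnfaip3* with 0, too few for a ratio. Stromal genes were near 0 in all pools but vehicle day 14, where the stroma and podocyte list summed to 175 CPM against 0 to 28.3 elsewhere, with all 14 counts of *Col1a1* in 1 cell. Loop of Henle genes, of which the rule capped *Slc12a1* and *Umod*, also summed highest there, to 874 CPM over 10 genes (6 detected) against 323 to 484 in the other pools. Of the pair tested, *Cldn10*, a claudin, stood at 544 CPM there against 310.03 in control and 234 at entospletinib day 14 (called lower with the drug), and *Erbb4*, a receptor of the EGF family, at 277 against 48.4 and 80.2 (not called). The part of these cells or their RNA in the day 14 values, *Spp1* included, was not tested.

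**Figure D3:**
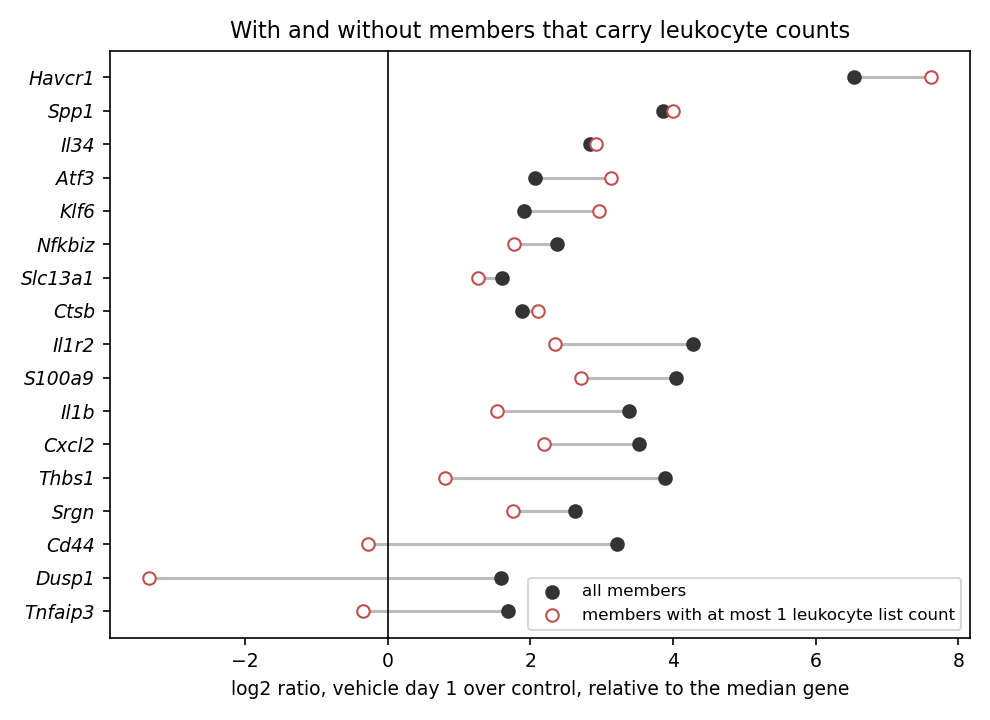
Log2 ratio of vehicle day 1 over control relative to the median gene (x axis) for 17 genes, in all proximal tubule cells (filled) and in those with at most 1 leukocyte list count (open). *Havcr1*, *Spp1* and *Il34* lie above their value in all members, while *Cd44*, *Tnfaip3* and *Dusp1* lie below 0 with 2, 1 and 0 counts left at vehicle day 1, where the added 0.5 count bears on the ratio.

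The question of the entospletinib arm was how the injured kidney differs when SYK is inhibited, and at each day the drug pool was set against the vehicle pool of that day. *Syk* itself was low in the members, from 22.4 to 158 CPM, against 366 to 841 in the other barcodes, and none of the comparisons with vehicle called it. At day 1 1.61% of all genes were called higher and 1.12% lower. The injury list had 2 of 12 lower (median -0.46), *Havcr1* (237 to 63.6 CPM, -1.77 ± 1.75) and *Cd44* (331 to 91.9 CPM, but 14.0 to 37.4 CPM from 2 and 7 counts in leukocyte-poor members), and *Spp1* was not called (-0.59 ± 1.14). The *Havcr1* call was lost in 4 of 20 alternatives, where the ratio went as far as -0.77. The *Havcr1* ratio was -2.95 in leukocyte-poor members, but in the cells above the mitochondrial limit it was 0.18, with 4 of 8 sublibraries on that side, at 267 CPM of non-mitochondrial counts for vehicle and 242 for entospletinib. *Ppara* was called higher (84.7 to 224 CPM, 1.51 ± 1.28), a ratio of 0.92 in leukocyte-poor members. The largest ratio was that of *Peak1*, a cytoskeletal kinase-like gene, at 5819.9 CPM in the entospletinib day 1 pool and between 74.4 and 317 in all other member pools. It was also higher in the other barcodes of that pool, at 4261 CPM against 268 to 456, so the difference was not limited to tubule cells.

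At day 7, 0.758% of all genes were called higher and 1.43% lower. *Fkbp5* (chr17:28399094-28517527, minus strand), a glucocorticoid-induced chaperone, stood at 122 CPM in control, 108, 54.7 and 45.6 at vehicle days 1, 7 and 14, and 89.5, 234 and 378 with entospletinib. The drug pools of days 7 and 14 were above control and the vehicle pools of those days below it, and the ratio was 1.82 ± 0.74 at day 7 and 3.14 ± 1.31 at day 14, higher in 8 of 8 sublibraries on both days. *Zbtb16*, another glucocorticoid target, was called higher at day 7 (10.4 to 96.5 CPM), and these were the 2 of 7 tested genes of the glucocorticoid list called there, against the vehicle pool in which both had been called lower than in control. At day 14 that list had *Fkbp5* called higher and *Dusp1* lower, with a median of 0.07. The other barcodes showed *Fkbp5* at 59.4 CPM at vehicle day 7 and 152 with the drug, and at 73.9 and 468 at day 14, so the difference was not limited to tubule cells. *Cyp2j13*, a cytochrome gene, was 107 CPM with vehicle and 469 with the drug. No gene of the metabolic lists was called, and *Cd44* was the 1 injury gene called lower (188 to 26.4 CPM, and 33.7 to 15.1 CPM and not called in leukocyte-poor members) and *Cp* the 1 called higher.

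At day 14, 3.88% of all genes were called higher and 2.67% lower, a balance that turned with at most 1 leukocyte count (61 higher and 171 lower), with cells weighted equally (108 and 136) and at a minimum of 10 CPM (219 and 521). The lower genes held 3 of 12 injury genes (*Sox4*, *Dcdc2a* and *Cp*, median -0.82) and 4 of 13 inflammatory genes (*Cxcl2*, *Il34*, *Nfkbiz* and *Tnfaip3*, median -0.97). They also held 5 of 15 immediate early genes (*Fos*, *Fosb*, *Fosl2*, *Jun* and *Atf3*, median -1.06) and 2 of 14 matrix genes (*Hbegf* and *Col4a1*, median -0.74). Among the genes of these lists that reached 50 CPM in control, the lower calls were 0 of 4, 1 of 8, 1 of 8 and 1 of 10. These lists held higher calls at vehicle day 14, but both comparisons use that pool, and a reversal was not tested. *Fosb* was 572 CPM with vehicle and 133 with entospletinib (-1.96 ± 1.68), and *Jun* 923 and 308 (-1.44 ± 1.36). In leukocyte-poor members *Cxcl2* was left with 2 counts with vehicle and 3 with the drug, *Sox4* with 1 and 4 and *Tnfaip3* with 0 and 6. There *Fosl2* was at -0.49, *Il34* at -0.45 and *Col4a1* at 331 CPM with vehicle and 238 with the drug. Each of these was under 2-fold there or rested on few counts. *Spp1* (-0.47 ± 1.54) and *Havcr1* (-1.62, lower in 4 of 8 sublibraries) were not called.

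In the glucose and amino acid list 3 of 19 genes were called higher at day 14 (*Pck1*, *Ass1* and *Gldc*, median 0.43, 16 of 19 above the median gene). In leukocyte-poor members *Pck1* was at 0.38 and not called, *Ass1* at 1.04 and not called, and *Gldc* at 2.66. In the fatty acid oxidation list it was 1 of 19 (median 0.18), a share near that of all genes. That gene was *Ppara*, at 242 CPM with vehicle and 760.0 with entospletinib (1.78 ± 0.56, 8 of 8), above control at 256. *Slc5a2* was 228 and 1051 CPM (2.33 ± 0.57, 8 of 8), again above control at 355, and *Gldc*, of glycine breakdown, 98.2 and 489.8 (2.43 ± 1.85). *Ppara* was likewise higher in the cells above the mitochondrial limit (2.55, 8 of 8). *Pth1r*, the parathyroid hormone receptor, was 129.8 and 315 CPM, and *Igfbp5*, an insulin-like growth factor binding protein, 24.6 and 203. All of these vehicle values came from 78 cells and share the pool in which the day 14 injury genes were high.

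The other lists held few calls. Of 19 apical transporter genes *Slc22a12*, the urate exchanger, went from 402 to 182 CPM at vehicle day 14 and was 336 with entospletinib, and *Abcc4*, an organic anion exporter, went from 106 to 400.0 and was 108 with the drug. In leukocyte-poor members of these pools *Slc22a12* was at 443, 248 and 353 CPM, with both ratios under 2-fold before centring. *Abcc4* was at 78.9, 350 and 115 CPM there. *Slc22a12*, *Abcc4* and *Slc5a2* were the calls of that list at day 14 with the drug, and *Slc13a1* and *Slc6a19* those at vehicle day 1. Of 15 basolateral transporter genes 2 were lower at vehicle day 1 and 3 at vehicle day 14, *Slc16a10* was higher at vehicle day 7, and all 15 lay above the median gene with entospletinib at day 14 with only *Slc26a1* called. Among 9 brush border genes only the protease *Mep1a* was called, lower at vehicle day 1 and with entospletinib at day 14. In leukocyte-poor members *Mep1a* was at 192 CPM in control and 161 at vehicle day 1, under 2-fold. Of 4 tested vitamin D and hormone genes *Vdr* was called lower at vehicle days 1 and 14, *Klf9* at day 1 and *Pth1r* at day 14. In leukocyte-poor members *Klf9* was at 462 CPM in control and 315 at vehicle day 1. There *Vdr* was at 270 CPM in control and 193 at vehicle day 14, and both genes were under 2-fold before centring. Among 13 nuclear regulators *Hnf4a* and *Maf* were lower and *Bicc1* higher at vehicle day 14, and with entospletinib *Pax2* was lower at day 1, *Bicc1* was lower at day 14 and 1 gene of the list was higher at day 7. In leukocyte-poor members *Maf* was at 1225 CPM in control and 754 at vehicle day 14, under 2-fold before centring, as *Hnf4a* was. Of the SYK pathway list 6 genes were tested, with *Nfkb1* higher at vehicle day 14 and *Lyn* lower with the drug at day 1, and of 2 cell cycle genes *Ccnd1* was lower at vehicle day 14. *Lyn* is also 1 of the 10 general leukocyte genes, which summed to 1778 CPM at vehicle day 1 and 784 at entospletinib day 1. Leukocyte-poor members, chosen on those 10 genes, held 4 and 3 counts of *Lyn* in these pools.

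**Figure D4:**
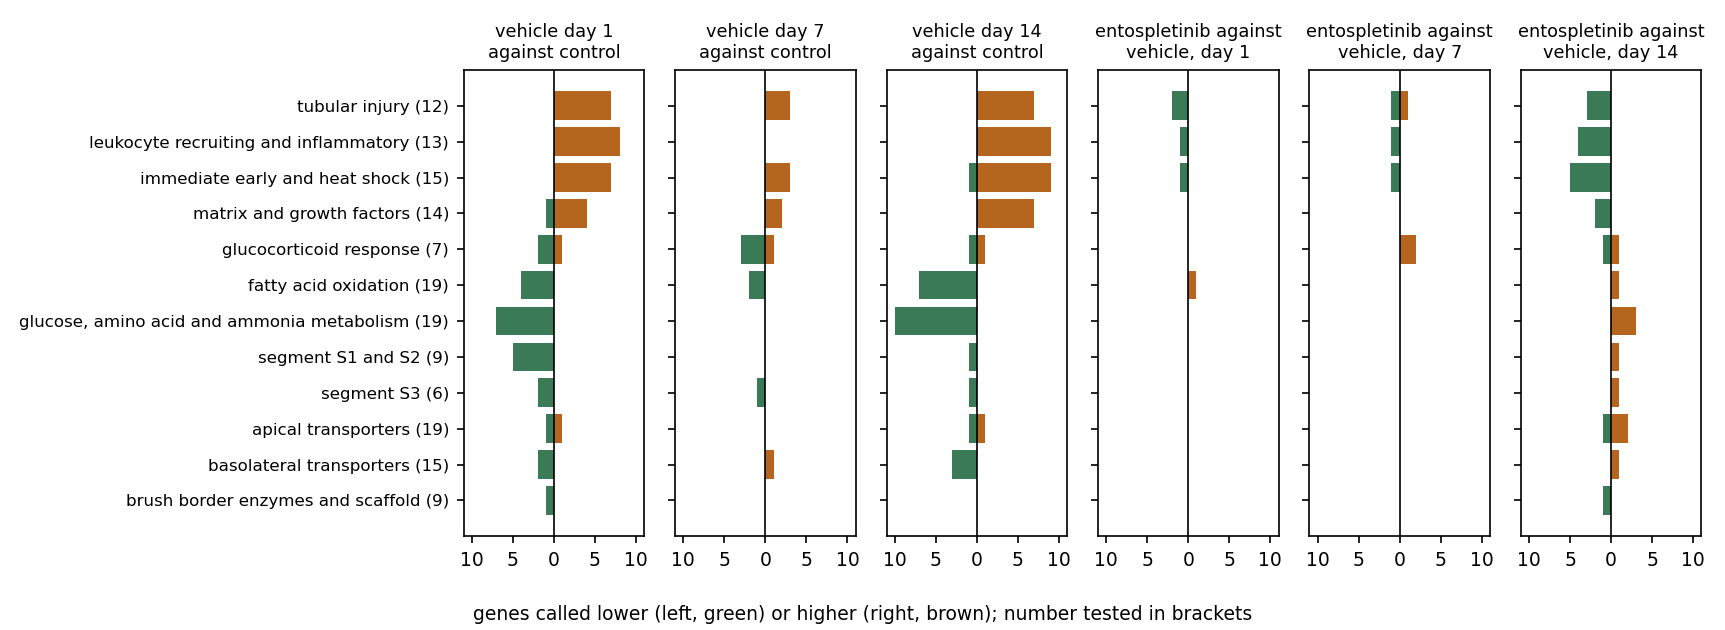
Number of genes called higher (right of 0) or lower (left of 0) in 12 gene lists for the 6 comparisons, with the number of genes tested in brackets. The injury, inflammatory and immediate early lists extend to the right at vehicle days 1 and 14 (7 to 9 genes) and to the left under entospletinib at day 14 (3 to 5 genes). The glucose and amino acid list extends to the left at vehicle days 1 and 14 (7 and 10 genes) and to the right under entospletinib at day 14 (3 genes).

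Only the 3 same-day pairs of pools allowed a test of the drug, in edgeR's quasi-likelihood fit with day as a term and 2 residual degrees of freedom. It called 4 of 3298 genes (0.121%) at an adjusted p of 0.05, all lower with entospletinib in 3 of 3 days, and 260 had an unadjusted p under 0.05. They were *Thbs1*, the matrix protein thrombospondin-1 (log2 -1.82, SE 0.23, adjusted p = 0.0404), *Cxcl2* (-2.44, SE 0.31, adjusted p = 0.0404), *Plek*, a platelet and leukocyte signalling gene (-1.96, SE 0.28, adjusted p = 0.0471) and *Antxr2*, an anthrax toxin receptor (-1.60, SE 0.23, adjusted p = 0.0471). In *Thbs1* 1 cell gave 54.2% of the counts at vehicle day 14 and 50.0% at entospletinib day 1, and in *Antxr2* 1 cell gave 50.0% at vehicle day 7. *Cxcl2* stood at 181, 96.4 and 109 CPM at vehicle days 1, 7 and 14, and at 47.1, 15.2 and 12.7 with entospletinib. All 4 were more abundant in the other barcodes than in the members in each of the 6 injured pools, and lower there with entospletinib too, *Thbs1* at 2715 against 685 CPM at day 1 and *Cxcl2* at 939 against 489. None of them was called with a marker sum of at least 6 and 3 genes detected (0 calls by edgeR, lowest adjusted p = 0.166, and 236 genes at an unadjusted p under 0.05) or in the leukocyte-poor members, where *Havcr1* was the 1 gene called (-2.73, edgeR adjusted p = 0.0317) against an adjusted p of 0.0631 in all members. In those members *Havcr1* had 70 counts with vehicle and 11 with the drug at day 1, 5 (from 1 cell) and 0 at day 7, and 3 and 4 at day 14, so its fold rests on day 1 and a pool at 0. *Fkbp5* (1.52, SE 0.50, adjusted p = 0.495) and *Ppara* (1.03, SE 0.38, adjusted p = 0.548) were not called across days. Without the day 7 pools *Ppara* was called (1.69, edgeR adjusted p = 0.0264), and 8 of the 19 calls there were higher with entospletinib.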

How the data were processed

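The authors made single-cell libraries of pooled kidney suspensions with combinatorial barcoding, aligned and counted them with the Parse Biosciences data analysis pipeline (version 1.1) against mm10 per the submitters' processing notes, and deposited raw counts per gene and cell with a table that gives each cell's condition. Some named genes are not reported here. The annotation release was not given in the sources used here. The 8 deposited samples are sublibraries that each mix all 7 conditions, and the deposited cell table assigned cells to conditions.

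The counts of 56860 gene symbols were summed over the members of each condition and sublibrary with numpy 2.4.6 and pandas 2.3.3 (Python 3.11.15). Summed counts were compared after adding 0.5 count and centring on the median gene. Intervals were exact Poisson or exact binomial (95%, scipy 1.17.1) and cover counting error only. The drug was tested with edgeR 4.0.16 (TMM scaling, R 4.3.3) over the 3 same-day pairs with day as a term and Benjamini-Hochberg adjustment, which treats the pools as replicates. Where nothing else is said, CPM refers to all counts of the cells.

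The genes named were those of the lists, the 5 called genes per direction with the largest ratios among those with an average of at least 100 CPM over the 7 conditions, and the genes called across days. The choice by ratio left out the 5 rule genes, mitochondrial and ribosomal protein genes, and genes without a symbol of known function. The members, lists and rules were chosen with earlier results of these data known. Ambient RNA was not removed and no ribosomal limit was applied, while the authors had also required less than 1.5% ribosomal genes. Alternatives covered that limit, stricter markers, mitochondrial limits of 15% and none, more than 500 genes per cell, at most 1 leukocyte count, equal weight per cell, TMM or DESeq2 1.42.0 scaling and test, low-count filters and leaving out each sublibrary or day.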

Additional observations from a re-analysis of the deposited data

Results flagged for a closer look

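A few named genes had opposite directions on different days in sublibraries that moved together, and the difference between days was not tested. *Ccnb1ip1*, an E3 ligase gene, was lower at vehicle day 1 than in control (log2 -1.25) and higher at vehicle day 7 (1.51), and with entospletinib it was higher than vehicle at day 1 (1.64) and lower at day 7 (-2.04). *Cp* was higher with entospletinib at day 7 (3.56) and lower at day 14 (-2.14), with 1 cell giving 51.5% of the counts in the day 7 drug pool and 55.3% in that of day 14. *Il31ra*, a cytokine receptor gene, was higher with entospletinib at day 1 (2.18) and day 14 (1.69) and lower at day 7 (-1.23). Each direction rests on 1 pool of 3 mice per condition. Among the 7 sets of 8 sublibrary shares no highest or lowest sublibrary stood apart beyond Dixon's critical value of 0.526.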

How the results depend on the processing

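The share of members kept its direction in every alternative except entospletinib over vehicle at day 1, which lay near 0. Its log2 ratios moved by more than the sublibrary SD to -4.22 at vehicle day 1 with at most 1 leukocyte count, to 0.42 (ribosomal limit) and 0.79 (at most 1 leukocyte count) for entospletinib at day 1, and to 2.31 at day 14 with more than 500 genes per cell. Without 1 sublibrary the shares ranged from -3.43 to -3.27, -2.26 to -2.04 and -3.96 to -3.79 for vehicle days 1, 7 and 14, and from -0.06 to 0.08, 1.03 to 1.20 and 1.68 to 1.86 for entospletinib.

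The number of called genes was 324, 80 and 446 for vehicle days 1, 7 and 14 and 90, 72 and 216 for entospletinib. With a minimum of 10 CPM it was 925, 464, 1138, 431, 438 and 740. At 2-fold alone it was 138 at vehicle day 7 and 182, 126 and 352 for entospletinib. Without a mitochondrial limit it was 199, 49 and 263 for vehicle and 29 for entospletinib at day 1, and with cells weighted equally 134 and 689 for vehicle days 7 and 14 and 260 for entospletinib day 1. Stricter markers gave 123 at vehicle day 7, and a 15% mitochondrial limit and at most 1 leukocyte count gave 177 and 166 for entospletinib day 1. Of the 90 main calls of entospletinib day 1, 50 were among these 177 and 14 among these 166. Without 1 sublibrary the counts ranged over 319 to 364, 83 to 139 (139 without the seventh), 434 to 512, 106 to 145 (145 without the sixth), 87 to 108 and 248 to 291. The larger side of the calls changed in several alternatives, among them at vehicle day 1 from 170 higher and 154 lower to 208 and 218 (15% mitochondrial limit), at vehicle day 7 from 43 and 37 to 47 and 76 (stricter markers) and 47 and 63 (15% limit), at vehicle day 14 from 131 and 315 to 605 and 533 (10 CPM), and for entospletinib day 1 from 53 and 37 to 54 and 112 (at most 1 leukocyte count) and, without the second sublibrary, 57 and 77.

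Across days the 4 edgeR calls became 10 with the ribosomal limit, 0 with stricter markers (236 at an unadjusted p under 0.05), 11 with a 15% or no mitochondrial limit, 14 with more than 500 genes, 1 with at most 1 leukocyte count, 22 at 10 CPM, 109 without a filter and 10 with DESeq2. Leaving out day 1, 7 or 14 gave 3, 19 (8 higher) and 2, of which those without day 1 were *Acod1*, *Cxcl2* and *Slc7a11*.

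Of 218 values of named genes 206 kept their sign under all 20 alternatives, and 77 were called under all. The others changed sign as follows. With at most 1 leukocyte count they were *Cd44* (-0.28), *Dusp1* (-3.35) and *Tnfaip3* (-0.35) at vehicle day 1, *Sox4* (-0.13) and *Tnfaip3* (-1.88) at vehicle day 14, and, for entospletinib, *Cd44* at day 1 (1.25), *Hspa1b* at day 7 (0.90) and *Sox4* (0.57) and *Tnfaip3* (2.68) at day 14. Each of these had 0 to 2 counts in the vehicle pool, where the added 0.5 count bears on the value. With stricter markers they were *Havcr1* at vehicle day 7 (-0.40) and, for entospletinib, *Lyn* (0.11) and *Ptprc* (0.59) at day 1 and *Hspa1b* (0.54) at day 7, the last also with a 15% mitochondrial limit (0.54). *Havcr1* at vehicle day 7 ranged from -0.26 (without the fourth) to 3.09 when 1 sublibrary was left out, and it was -0.24 without its 1 cell, an alternative chosen after seeing the data that took 6 values under 2-fold. The causes were not tested. The edgeR fit pairs the pools by day, and the ratios within sublibraries pair portions of the same cells. A block on replicate number could not be fitted, since the deposited samples are mixtures of all conditions without such numbers.

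A single pool of 3 mice per condition leaves the spread between mice unmeasured. The sort for leukocytes, the 78, 90 and 92 members of the smallest pools and the few cells behind *Havcr1*, *Cp* and *C3* limit all levels given here.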
